A study of Homo sapiens with 9 samples.

Results

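The insulin-like growth factor (IGF) system was described in HepG2 cells, an established human liver tumour line, with and without glutamine (Gln). The 9 genes were IGF2, which encodes a growth factor, IGFBP1, IGFBP2, IGFBP3, IGFBP4 and IGFBP6, which encode binding proteins, IGFALS, which encodes the acid-labile subunit, and the receptor genes IGF1R and IGF2R, out of 22587 genes measured. The set was chosen by the measured FPKM of IGFBP1, for its large rise after Gln was withdrawn, so the values of IGFBP1 are a description with no test. RNA-seq was available for 3 libraries with Gln added (the group labelled ADD), 3 after 12 h without Gln and 3 after 24 h without Gln. The deprived cultures were moved to medium lacking Gln at 24 h after seeding, in high-glucose DMEM with serum, and no time in culture is given for the ADD group. The labels name GlutaMAX, a dipeptide source of Gln, as the treatment of the ADD cells, whereas the treatment protocol places GlutaMAX in the medium that lacks Gln, so what the deprived cells received is not settled by the sources. The 9 libraries come from 1 cell line, and nothing in the labels says whether the 3 libraries of a group came from separate cultures, so p-values measure the spread between these libraries, which may be technical.

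IGF1 and IGF2 are small secreted proteins that act mainly through the IGF1 receptor, a tyrosine kinase that signals through IRS adaptors, PI3K and AKT. IGFBPs hold most of the IGF outside cells and set how much reaches the receptor. The liver is the main source of circulating IGFBP1, whose transcription is repressed by insulin through AKT and FOXO factors and rises in fasting.

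The 9 libraries held between 29621270 and 36261546 fragments on genes, as recovered from the FPKM values (fragments scaled by gene length and by the total of the library). Hepatocyte markers were present, with ALB between 3230 and 3908 FPKM, and 10 of 10 liver markers passed the filter on low values, of which 6 were called lower at 12 h and 6 at 24 h. Of 14 markers of stellate, endothelial and immune cells, 9 were genes of the table. Their summed level without ACTA2 lay between 0.316 and 0.552 FPKM in the ADD libraries, between 0.442 and 0.654 FPKM at 12 h and between 0.806 and 0.949 FPKM at 24 h, COL1A1, COL3A1, CDH5 and CD163 were at or near 0, and 2 to 5 of the 9 markers were listed at 0 in a library. PECAM1, the larger part of that sum in ADD, averaged 0.286 FPKM in ADD, 0.136 FPKM at 12 h and 0.151 FPKM at 24 h, while PDGFRB averaged 0.156, 0.385 and 0.668 FPKM. ACTA2, which tumour lines also express, went from 35.9 FPKM to 24.2 FPKM and 21.6 FPKM. The part of these markers in the results was not tested. These are bulk libraries scaled to their own depth, so a change in the RNA content of each cell and a change in the mix of cells cannot be told apart.

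IGFBP1 lies on chromosome 7 at 45888360 to 45893660 on the plus strand (GRCh38, GENCODE 44). IGFBP3 lies next to it at 45912245 to 45921874 on the minus strand, so the 3′ ends of both genes face each other across 18584 bases. The other genes are on separate chromosomes: IGFBP2 on 2, IGF2R on 6, IGF2 on 11, IGFBP6 on 12, IGF1R on 15, IGFALS on 16 and IGFBP4 on 17. RefSeq promoter sequences (GRCh38.p14) matched 7 of the 9 genes, with 9 start sites in all, and IGFBP1 and IGF2 had no entry. The promoters of IGFBP3 and IGFBP4, both of which rose at 12 h and 24 h, are given here as the 250 bases before the start site, read 5′ to 3′ along the gene. IGFBP3 is chr7:45921273-45921522 on the minus strand and IGFBP4 is chr17:40443200-40443449 on the plus strand. The RefSeq start of IGFBP3 lies downstream of its GENCODE 44 start, so this window falls inside the gene span given above. Capitals mark a GC box (GGGCGG) or a TATA box (TATANA, with N for any base), on either strand.
IGFBP3: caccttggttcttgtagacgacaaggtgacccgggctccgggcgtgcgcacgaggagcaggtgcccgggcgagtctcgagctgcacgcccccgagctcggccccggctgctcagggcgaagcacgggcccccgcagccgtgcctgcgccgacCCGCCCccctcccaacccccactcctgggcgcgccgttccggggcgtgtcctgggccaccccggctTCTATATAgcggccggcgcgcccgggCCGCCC
IGFBP4: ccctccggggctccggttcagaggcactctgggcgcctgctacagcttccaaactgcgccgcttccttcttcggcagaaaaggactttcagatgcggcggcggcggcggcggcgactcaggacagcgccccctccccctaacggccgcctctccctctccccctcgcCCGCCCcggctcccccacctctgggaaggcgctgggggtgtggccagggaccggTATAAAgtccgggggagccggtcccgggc
Both windows are rich in G and C, at 76.0% for IGFBP3 and 71.6% for IGFBP4. A TATA box match began 29 bases before the start in IGFBP4, while IGFBP3 had overlapping matches on both strands. Among the other promoters matched, only that of IGFALS held TATANA, which occurs in 17.7% of the 35116 promoters of the table. GGGCGG, present in 42.6% of all promoters, was found in 8 of the 9 windows. An ATF4 element (TGATGNAA, 3.14% of all promoters) and an AP-1 element (TGANTCA, 6.57%) were in none of the 9 windows. A forkhead element (TGTTTAC, 2.98%) was in that of IGFBP6 alone. A match is a description of these letters and not of binding.

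IGFBP1 was the most abundant IGFBP gene and had the largest absolute change in FPKM of the 9 genes. The 3 ADD libraries held 98.0, 93.7 and 95.1 FPKM of IGFBP1. The 12 h libraries held 853, 818 and 816 FPKM. The 24 h libraries held 1196, 1117 and 1128 FPKM. All deprived libraries were above all ADD libraries, and the 24 h libraries were above the 12 h libraries. The means were 95.6 ± 2.19 (SD, n = 3), 829 ± 21.1 and 1147 ± 42.9 FPKM, a ratio to ADD of 8.67 at 12 h and 12.0 at 24 h. The difference from ADD, as log2(FPKM + 0.1), was 3.12 for the 12 h libraries and 3.58 for the 24 h libraries, which were 0.47 apart. IGFBP1 thus moved from rank 565 to 588 among all genes in the ADD libraries to rank 43 to 45 at 12 h and rank 26 to 28 at 24 h. Its fragments were between 0.0142% and 0.0148% of the library with Gln added and between 0.169% and 0.181% after 24 h.

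**Figure D1:**
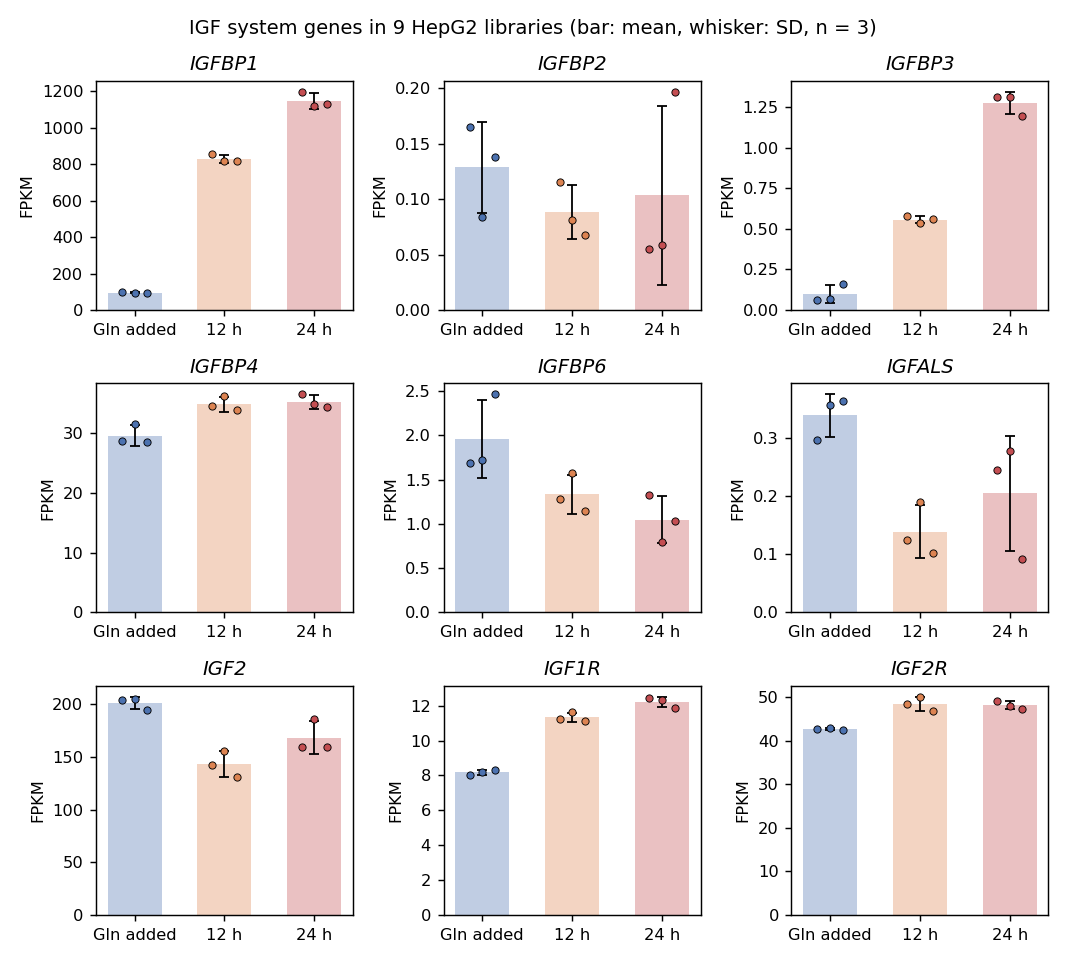
FPKM of the 9 genes (y axes, each from 0 on its own scale) with Gln added and after 12 h or 24 h of deprivation, with bars for the mean of 3 libraries, whiskers for the SD and points for libraries. IGFBP1 goes from about 95.6 to 1147 FPKM, IGFBP3 has steps in the same order but ends at 1.28 FPKM, and IGF2 is lowest at 12 h.

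IGFBP3 encodes the main carrier of IGF in serum, which forms a complex with IGF and the acid-labile subunit. It was close to absent with Gln added, at 0.0639, 0.0653 and 0.16 FPKM, which rest on 6, 6 and 15 fragments. It reached 0.577, 0.535 and 0.559 FPKM at 12 h and 1.32, 1.31 and 1.2 FPKM at 24 h, the latter from 110 to 124 fragments per library. The 3 groups did not overlap and stood in the order of time without Gln. The ratio of means to ADD was 5.77 at 12 h and 13.2 at 24 h. IGFBP3 passed the filter on low values only through the deprived libraries, in which it was high, so its test is taken from the fit of all genes with no filter. In log2(FPKM + 0.1) the gene rose by 1.78 after 12 h (SE 0.196, limma adjusted p = 0.000163) and by 2.84 after 24 h (adjusted p = 7.14e-06), and the 24 h level was above the 12 h level by 1.07 (adjusted p = 0.0131). The size of this log2 change rests on the pseudocount. It was 0.51 and 1.05 with a pseudocount of 1, and 2.59 and 3.78 by limma-voom on recovered fragments.

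IGFBP4, whose product mostly restrains IGF action until it is cleaved by the protease PAPPA, rose by a small amount. Its level was 28.7, 31.6 and 28.5 FPKM in ADD. It was 34.6, 36.3 and 33.9 FPKM at 12 h and 36.6, 34.9 and 34.4 FPKM at 24 h. Every deprived library was above every ADD library, while the 12 h and 24 h libraries overlapped. The log2 difference was 0.24 at 12 h (SE 0.049, adjusted p = 0.00159) and 0.25 at 24 h (adjusted p = 0.000913). Between both times it was 0.02 (95% interval -0.09 to 0.12, adjusted p = 0.858).

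IGFBP6, whose product prefers IGF2 over IGF1, moved the other way at a low level. It was 1.69, 1.72 and 2.46 FPKM in ADD, 1.28, 1.57 and 1.14 FPKM at 12 h, and 1.33, 0.794 and 1.03 FPKM at 24 h. The deprived libraries were all below the ADD libraries, and ADD replicate 3 stood above the other ADD libraries. The gene fell by 0.51 at 12 h on the log2 scale (SE 0.195, adjusted p = 0.0414) and by 0.84 at 24 h (adjusted p = 0.00296), and 24 h against 12 h gave -0.33 (95% interval -0.76 to 0.10, adjusted p = 0.264). The 12 h call is not firm: without ADD replicate 3 the difference was -0.34 (adjusted p = 0.165). It was also lost without 12 h replicate 1 (adjusted p = 0.0933), without 12 h replicate 3 (adjusted p = 0.128) and without 24 h replicate 3 (adjusted p = 0.0543), and under 5 other settings of the test. With a pseudocount of 1 the differences were -0.34 and -0.53.

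IGFBP2 and IGFALS were below the filter of a mean of 0.5 FPKM. IGFBP2, another binding protein made by the liver, had 4 to 14 fragments per library, between 0.0547 and 0.197 FPKM, and its groups overlapped. IGFALS, which encodes the subunit that prolongs the life of IGFBP3 complexes in blood, held 0.297, 0.356 and 0.362 FPKM in ADD. It held 0.124, 0.19 and 0.102 FPKM at 12 h and 0.244, 0.277 and 0.0924 FPKM at 24 h, from 7 to 28 fragments. Each deprived library was below each ADD library. In a fit of all genes with no filter, IGFALS differed from ADD by -0.89 at 12 h (adjusted p = 0.0325) and by -0.58 at 24 h (adjusted p = 0.135), and IGFBP2 by -0.27 (95% interval -0.87 to 0.33, adjusted p = 0.512) and -0.22 (95% interval -0.82 to 0.38, adjusted p = 0.586).

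IGF2, a fetal growth factor that liver tumour cells often express, was the most abundant member with Gln added. Its level was 204, 205 and 195 FPKM in ADD. It was 143, 156 and 131 FPKM at 12 h and 160, 186 and 159 FPKM at 24 h. The groups did not overlap, and the 12 h group was the lowest. IGF2 fell by 0.49 at 12 h on the log2 scale (SE 0.072, adjusted p = 0.000155) and by 0.26 at 24 h (adjusted p = 0.00821), and the mean FPKM decreased by 28.9% at 12 h and decreased by 16.3% at 24 h. The 24 h level was above the 12 h level by 0.23 (adjusted p = 0.0426), a call that was lost without any 1 of the ADD libraries, 12 h replicate 1, 12 h replicate 3 or 24 h replicate 2, where the adjusted p reached 0.119. Of the exonic bases of IGF2, 43.16% are shared on the same strand with other annotated genes, INS-IGF2 among them, and 4.66% lie opposite genes such as IGF2-AS. The level of IGF2 is therefore uncertain, since the counting could have split these reads.

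The genes of both receptors rose. IGF1R, the signalling receptor, held 8.04, 8.22 and 8.3 FPKM in ADD, 11.3, 11.6 and 11.1 FPKM at 12 h, and 12.4, 12.4 and 11.9 FPKM at 24 h. No library of 1 group overlapped another group. The log2 difference was 0.47 at 12 h (SE 0.041, adjusted p = 4.24e-06) and 0.57 at 24 h (adjusted p = 6.16e-07), and 24 h against 12 h gave 0.11 (95% interval 0.01 to 0.20, adjusted p = 0.0975). IGF2R, whose product takes IGF2 into cells for breakdown and sorts lysosomal enzymes, held 42.7, 43 and 42.6 FPKM in ADD. It held 48.4, 50.1 and 46.9 FPKM at 12 h and 49.2, 48 and 47.4 FPKM at 24 h, above every ADD library but overlapping between both times. Its log2 difference was 0.18 at 12 h (SE 0.035, adjusted p = 0.00111) and 0.17 at 24 h (adjusted p = 0.00131), and -0.01 between both times (adjusted p = 0.894).

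**Figure D2:**
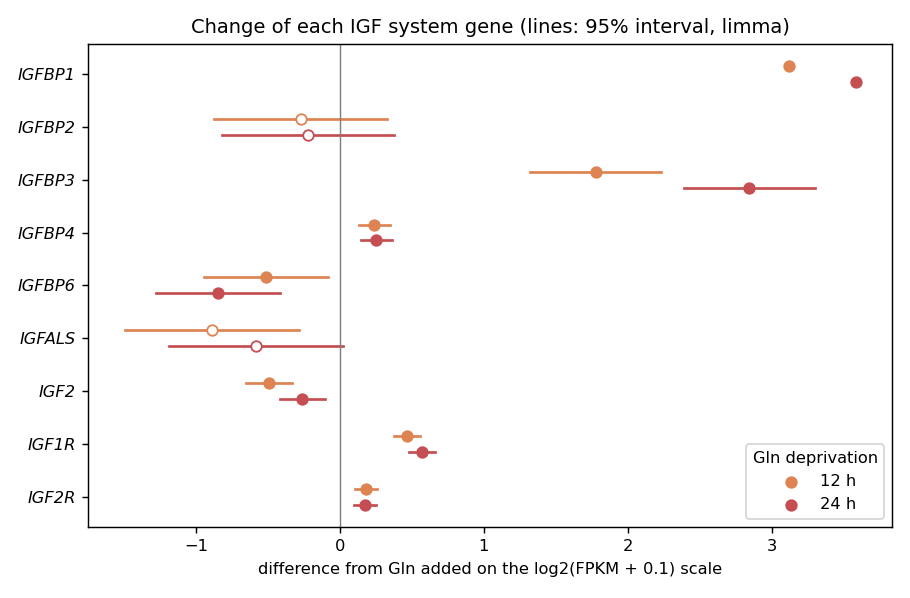
Difference from Gln added on the log2(FPKM + 0.1) scale (x axis) for each of the 9 genes at 12 h and 24 h, with lines for the 95% interval from limma, open points for genes below the filter (fit with no filter) and no interval for IGFBP1, which chose the genes. IGFBP1 and IGFBP3 lie farthest to the right, at 3.58 and 2.84 after 24 h, and IGFBP6, IGFALS and IGF2 lie to the left.

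The counts of calls have to be read against a background in which most genes changed. At 12 h 60.2% of the 11880 genes tested were called in either direction, 29.1% higher and 31.0% lower, and 67.2% had no overlap between the 3 deprived and the 3 ADD libraries. At 24 h the shares were 64.7%, 33.0%, 31.7% and 69.9%. Leaving out IGFBP1, which chose the members, and IGFBP3, which passed the filter only where it was high, 5 genes were tested, and 5 were called at each time. Of these, IGFBP4, IGF1R and IGF2R were higher and IGFBP6 and IGF2 lower. Between 24 h and 12 h 20.1% of all genes were called and 34.4% had no overlap, and of the same 5 members only IGF2 was called. Both comparisons with ADD share the same 3 ADD libraries, so the like directions at 12 h and 24 h are not independent. Since most genes of the table changed as well, nothing particular to the IGF system is read from the member counts.

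FPKM is scaled by length, so levels can be set side by side within a library. The level of IGF2 is uncertain, as given above, and so is its place in these orders. With Gln added the order of mean levels was IGF2, IGFBP1, IGF2R, IGFBP4, IGF1R, IGFBP6, IGFALS, IGFBP2 and IGFBP3, and the last pair overlapped. At 12 h IGFBP1 stood above IGF2, IGFBP3 had passed IGFALS and IGFBP2, and the last pair, IGFALS and IGFBP2, overlapped. At 24 h IGFBP1, IGF2, IGF2R, IGFBP4 and IGF1R kept the 12 h order, followed by IGFBP3 and IGFBP6, which overlapped, and by IGFALS and IGFBP2, which overlapped.

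IGFBP1 made up nearly the whole of the IGFBP messages after deprivation. Its share of the summed FPKM of the 5 IGFBP genes was 75.0% ± 1.26 (SD, n = 3) in ADD, 95.7% ± 0.206 at 12 h and 96.8% ± 0.0252 at 24 h. The summed level of the other 4 IGFBP genes was 31.8 ± 1.49 FPKM, 36.9 ± 1.46 FPKM and 37.7 ± 1.33 FPKM, nearly all of it IGFBP4. The ratio of IGFBP1 to IGF2 was 0.475 ± 0.0164 in ADD, 5.82 ± 0.511 at 12 h and 6.85 ± 0.774 at 24 h. That ratio lay between 0.457 and 0.488 in the ADD libraries and between 5.25 and 7.48 in the deprived libraries, and it does not depend on scaling between libraries. Its size carries the uncertainty of the IGF2 level. IGF1R per INSR, the insulin receptor gene, stayed between 0.831 and 0.941 over the 9 libraries. These ratios describe messages and not secreted protein.

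The rest of the pathway was followed with a list of 41 further genes of IGF signalling, of which 37 were in the table and 25 passed the filter. At 12 h 9 were called higher, 8 lower and 8 were not called, and at 24 h the counts were 9, 9 and 7. Of all genes tested, 60.2% at 12 h and 64.7% at 24 h were called in either direction. Most genes were thus called in the list and outside it, so these counts are no result about the pathway. They also include IRS2 among the higher and STAT5A among the lower genes, which passed the filter only through the libraries in which they were high. The median log2 difference of the list was 0.01 at 12 h and -0.02 at 24 h, beside -0.02 and 0.01 over all genes tested. About as many genes of the list were higher as lower. IGF1, IGFBP5, PAPPA, PAPPA2 and the growth hormone receptor gene GHR were at or near 0, with group means of at most 0.00452 FPKM.

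Single genes of the pathway moved by more. STC2, which encodes stanniocalcin 2, an inhibitor of PAPPA, rose from 21.3 FPKM to 59.8 FPKM at 12 h and 57.0 FPKM at 24 h (log2 difference 1.49, limma adjusted p = 3.55e-10, and 1.42). GRB10, an adaptor that dampens insulin and IGF1 receptor signalling, rose from 0.903 FPKM to 2.69 FPKM and 2.85 FPKM (1.47 and 1.55). The docking protein genes IRS2 and IRS1 both rose, IRS2 from 0.388 FPKM to 0.886 FPKM and 1.25 FPKM (1.01 and 1.46) and IRS1 from 10.2 FPKM to 13.5 FPKM and 14.99 FPKM (0.40 and 0.55). IRS2, like IGFBP3, passed the filter only through the deprived libraries, and with no filter its adjusted p was 0.00089 at 12 h and 7.73e-05 at 24 h. INSR rose from 9.01 FPKM to 13.4 FPKM and 13.3 FPKM (0.56 at both times). PDPK1, the kinase that activates AKT, rose from 10.7 FPKM to 19.7 FPKM and 20.1 FPKM (0.88 and 0.91). Genes that lost message were IGFBP7, a low-affinity IGF binder, from 3.78 FPKM to 2.62 FPKM and 2.52 FPKM (-0.51 and -0.57), and STAT5A, a transcription factor of growth hormone signalling, from 0.843 FPKM to 0.516 FPKM and 0.418 FPKM (-0.61 and -0.88). With a pseudocount of 1 the differences of the low genes were smaller, at 0.44 and 0.69 for IRS2, 0.95 and 1.01 for GRB10 and -0.28 and -0.38 for STAT5A. For PDPK1 and IGFBP7, 23.7% and 18.34% of exonic bases lie opposite other annotated genes, which matters where reads are counted without strand, and the strandedness of these libraries is not settled. Between 24 h and 12 h 5 of the 25 were called, beside 20.1% of all genes tested, so this share is no result about the pathway. These, picked out after their values were seen, were IRS1 and the adaptor gene SHC1, which were higher at 24 h, and AKT1, IGF2BP1 and M6PR, which were lower.

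A list of 20 names of regulators of IGFBP1 and of FOXO targets in liver was measured next. It had 19 names in the table and 17 tested, and the 1 absent name is an older symbol of G6PC1. At 12 h 13 were called higher, 2 lower and 2 were not called. At 24 h the counts were 12, 2 and 3. Of all genes tested 29.1% and 33.0% were called higher. IRS2, which passed the filter only through the deprived libraries, is among those counted as higher at both times, so these counts are not free of that choice. The median log2 difference of the list was 0.44 at 12 h and 0.54 at 24 h, beside -0.02 and 0.01 over all genes tested. The list was drawn up with earlier results of these data known. Its counts and its median are therefore a description and no result about these genes as a set. FOXA1, a pioneer factor of liver named after its values were seen, was among those called lower (-0.41 and -0.50).

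DEPP1, a FOXO target gene linked to autophagy, changed the most of the list, from 8.41 ± 0.612 FPKM (SD, n = 3) to 39.7 ± 0.842 and 66.6 ± 4.27 FPKM, or by 2.23 and 2.97 on the log2 scale. Of its exonic bases 23.33% lie opposite RASSF4. G6PC1, the catalytic subunit gene of glucose-6-phosphatase, rose from 1.74 FPKM to 3.36 FPKM and 5.11 FPKM (0.91 and 1.5), and PPARGC1A, a coactivator of gluconeogenic genes, from 1.16 FPKM to 2.77 FPKM and 3.92 FPKM (1.19 and 1.67). ATF4, the factor of the amino acid response, rose from 41.9 FPKM to 77.4 FPKM and 75.5 FPKM (0.88 and 0.85). The FPKM level of ATF4 is uncertain, since the counting length recovered for it, 7716 bases, exceeds the 2989 bases that the gene spans in GENCODE 44, but differences between libraries do not depend on length. FOXO3 rose from 2.24 FPKM to 3.87 FPKM and 3.94 FPKM (0.76 and 0.79), and FOXA3 from 14.5 FPKM to 21.8 FPKM and 24.5 FPKM (0.58 and 0.75). PCK1, which encodes the gluconeogenic enzyme phosphoenolpyruvate carboxykinase, and SESN3, also FOXO targets, were below the filter, PCK1 with group means between 0.0374 and 0.0763 FPKM.

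**Figure D3:**
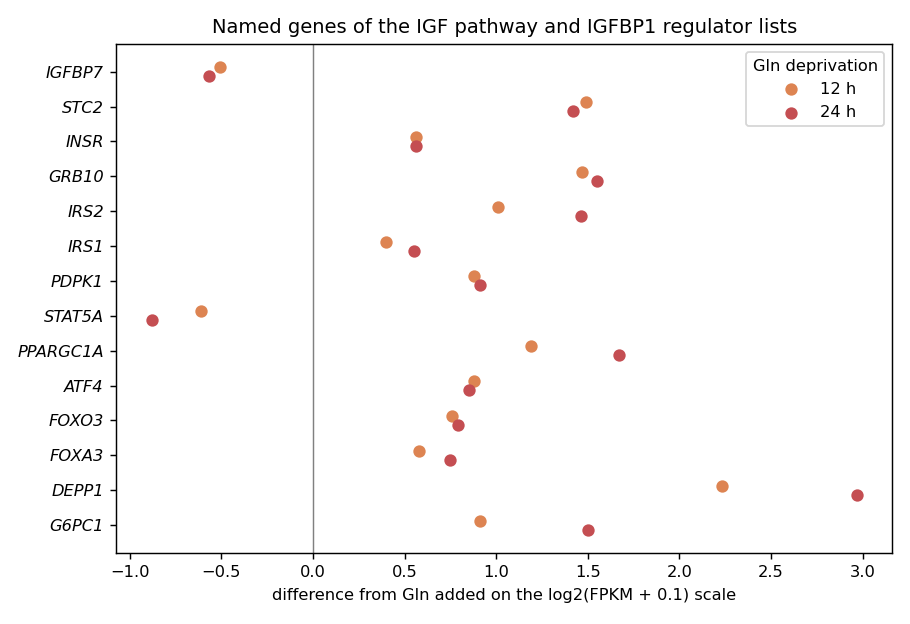
Difference from Gln added on the log2(FPKM + 0.1) scale (x axis) at 12 h and 24 h for the named genes of both lists. DEPP1 reaches 2.97 at 24 h, and IGFBP7 and STAT5A are the genes shown to the left of 0.

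The genes whose pattern was most like that of IGFBP1 were found by the root mean square difference over the 9 libraries between the log2(FPKM + 0.1) values of each gene and of IGFBP1, each less its own ADD mean. This uses the values that chose IGFBP1 and is a description. The median distance was 2.746 over the 10867 genes compared, which averaged 1 FPKM or more. The 5 nearest genes were ASNS (0.502), DUSP5 (0.533), TSC22D3 (0.587), DEPP1 (0.626) and AREG (0.694). ASNS, which encodes asparagine synthetase, averaged 0.128 FPKM in ADD, 1.81 FPKM at 12 h and 1.43 FPKM at 24 h, and 49.33% of its exonic bases are shared with another annotated gene, so its level is uncertain. DUSP5, a phosphatase gene of the ERK pathway, averaged 1.13, 5.66 and 12.7 FPKM. TSC22D3, a glucocorticoid-responsive gene, averaged 0.437, 2.99 and 3.52 FPKM. AREG, which encodes the growth factor amphiregulin, averaged 1.09, 5.56 and 8.03 FPKM. In each group the mean of IGFBP1 was far above that of each of these 5 genes. The ranking depends on the pseudocount: with 0.01, 4 of the 5 genes were again among the 5 nearest, and with 1 only DEPP1 and DUSP5 were, with EGR1 nearest (0.212).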

How the data were processed

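RNA-seq of HepG2 cells was analysed in 3 groups of 3 libraries. Per the paper's methods, the authors aligned reads to GRCh38 with STAR and tested with DESeq2. The submitters' processing notes name HTSeq and R 3.2.0, and the labels name another library kit than the methods do. The values the authors deposited are FPKM, with no other scaling stated. Each FPKM value equals a whole fragment number times a constant of the gene and the library, from which fragments were recovered. Whole fragments came out for 100% of 22587 genes (tolerance 0.005 fragments).

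Groups were compared with limma 3.58.1 (R 4.3.3, eBayes with trend) using log2(FPKM + 0.1) of the 11880 genes that averaged 0.5 FPKM or more, in 1 fit of 3 groups, two-sided, with Benjamini-Hochberg adjustment over all genes tested and calls at an adjusted p under 0.05. Fold changes on this scale understate those of genes near 0.1 FPKM. The script was tested on simulated data. All replicate pairs differed by more than sampling noise. The labels give no batch.

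The members and gene lists were chosen with earlier results of these data known. Named are the 9 members, list genes called with a log2 difference of at least 0.5 and no overlap with ADD (up to 4 of each role), and the 5 genes most like IGFBP1. Gene positions and exon overlaps are from GENCODE 44 and promoters from RefSeq. Alternatives changed the pseudocount, filter, scaling, fit and libraries. The values of 1 list gene are not reported here.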

Additional observations from a re-analysis of the deposited data

Results flagged for a closer look

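The effects of deprivation at 12 h and 24 h were set against each other by the limma contrast of 24 h with 12 h, which uses the ADD libraries only for the shared spread. Among the members and the list genes named by rule, 7 differed between both times, where 20.1% of all genes tested were called. The list genes had been named for a large difference from ADD in these same deprived libraries. The number is therefore no result about these genes as a set. IGFBP3 was higher at 24 h by 1.07 on the log2 scale (adjusted p = 0.0131 in the fit with no filter, since it passed the filter only where it was high), with 3 of 3 libraries at 24 h above all at 12 h. DEPP1 was higher by 0.74 (adjusted p = 2.15e-05), G6PC1 by 0.59 (adjusted p = 0.000445) and PPARGC1A by 0.49 (adjusted p = 0.00246). Smaller differences were those of IGF2 at 0.23 (adjusted p = 0.0426), FOXA3 at 0.17 (adjusted p = 0.028) and IRS1 at 0.15 (adjusted p = 0.0257). IGF2 had fallen at 12 h and was nearer to the ADD level at 24 h. The calls of IGF2, FOXA3 and IRS1 were each lost when 1 of several libraries was left out, with adjusted p up to 0.119, 0.0973 and 0.0739, while DEPP1, G6PC1 and PPARGC1A, and IGFBP3 in the filtered fit, kept theirs without any 1 library.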

How the results depend on the processing

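Over 103 results and 1511 values under other settings, none changed direction among called values, and 1458 were taken as unchanged. These kept direction and side of the threshold, moved by less than the replicate SD or, for counts, stayed within a set factor of the main count. That rule is loose for counts: the 6455 genes called at 12 h without ADD replicate 3, beside 7147, were taken as unchanged. The 12 h fall of IGFBP6 was no longer called with no filter (-0.51, adjusted p = 0.11), with library totals made equal (-0.48, adjusted p = 0.052), with the trend left out (-0.51, adjusted p = 0.0555), and by voom on fragments (-0.54, adjusted p = 0.0711), and it ran from -0.63 to -0.34 as each library was left out. IGF2 at 24 h against 12 h was not called with no filter (0.23, adjusted p = 0.113), with median-ratio scaling (0.21, adjusted p = 0.0702), with only the groups compared (0.23, adjusted p = 0.0869) or without the trend (0.23, adjusted p = 0.0823), and ran from 0.16 to 0.30 as each library was left out. The number of members called at 24 h against 12 h, 2 with IGFBP3 counted, was 1 with no filter, with the filter raised to 1 FPKM, with median-ratio scaling, with only the groups compared and without the trend, and 1 to 2 as each library was left out. The pathway count of 5 was 3 with only the groups compared and 3 to 4 as each library was left out. With equal totals, IGFBP1 at 24 h was 3.63 and the ADD means of IGF1R and IGF2R were 8.04 and 42.0 FPKM. With a pseudocount of 1, chosen after seeing the data, 2 of the 5 genes most like IGFBP1 remained. The causes were not tested. Pairing by number was looked for in what was left of the log2 values after each gene's group mean was subtracted. Between libraries of different groups, these remainders correlated by -0.136 to 0.283 for the same number. For different numbers they correlated by -0.467 to 0.296, so no pairing by number was seen. With 3 libraries per group these values cannot settle whether the numbers pair the samples. With a replicate block 7341, 7802 and 2586 genes were called at 12 h, 24 h and 24 h against 12 h, beside 7147, 7686 and 2386, and IGFBP6 at 12 h was -0.51 (adjusted p = 0.0625). Counts of few fragments limit IGFBP2, IGFBP3, IGFBP6 and IGFALS.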
